A study of Mus musculus with 5 samples.

Results

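The Scube1 locus of the mouse uterus held 32 estrogen receptor α (ERα) peaks, 8 in a vehicle library and 24 in an estradiol library, out of 22424 peaks in both lists. Its members were chosen by position: every peak with at least 1 bp in chromosome 15 from 83335000 to 83656000 on mm9, which is Scube1 (about 83.435 to 83.556 Mb) with 100 kb on each side. The locus was picked from the same lists because its estradiol peaks stood close together and several vehicle peaks lay among them, so the peak numbers and spacing given here describe it and test nothing. The gene bounds are rounded, and all distances from the gene are approximate.

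Both libraries were made by ChIP-seq, the sequencing of DNA recovered with an antibody to a bound protein, with the same ERα antibody on uteri of C57BL/6J mice labelled WT (wild type). The mice had lost their ovaries 10 to 14 days before an injection into the abdomen, of saline in the vehicle group or of 250 ng of estradiol per mouse in the other, and the uterus was taken after 1 hour. Whole uterus was used, so the cell type behind a peak is unknown, and the labels used here do not give the number of mice per library. Each condition is 1 library, so every difference between vehicle and estradiol is a difference between those 2 libraries, with no replicate check. The lists hold peak positions without heights or read counts, so the sequencing depth is unknown and length is the only measure of a peak.

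ERα is a nuclear receptor that estradiol activates. It binds DNA at estrogen response elements, palindromes of a short motif, and through other DNA-bound factors, and most of its sites lie in introns or between genes rather than at promoters. Scube1 encodes a secreted and cell-surface glycoprotein with EGF-like repeats and a CUB domain, which is made by endothelial cells and stored in platelets. RefSeq places Scube1 (gene 64706) on the minus strand, so transcription runs from the side of higher coordinates. On the GRCm38 build the next protein-coding gene upstream of its start is Mpped1, a metallophosphoesterase domain gene, and the next one past its far end is Ttll12, a tubulin tyrosine ligase-like gene. The long noncoding RNA gene Gm52183 lies within the bounds of Scube1 on that build.

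The outermost start of Scube1, taken at the rounded gene bound, had no ERα peak in either library. Any start farther inside the gene, and that of Gm52183, were not placed on mm9 and so were not checked. The estradiol peak nearest to the approximate start lay 16.4 kb upstream, and the nearest one within the gene lay 30.1 kb downstream. The nearest vehicle peak lay 42.2 kb from the start, inside the gene. The DNA just upstream of the start is shown here as the promoter, and was not itself compared with the peaks. It is 238 bases of RefSeq sequence on GRCm38.p6, chr15:83725052-83725289, minus strand, which ends before every RefSeq start of the gene and whose coordinates cannot be set beside the mm9 positions. Capitals mark a GC box and a CCAAT box.
Scube1 upstream sequence: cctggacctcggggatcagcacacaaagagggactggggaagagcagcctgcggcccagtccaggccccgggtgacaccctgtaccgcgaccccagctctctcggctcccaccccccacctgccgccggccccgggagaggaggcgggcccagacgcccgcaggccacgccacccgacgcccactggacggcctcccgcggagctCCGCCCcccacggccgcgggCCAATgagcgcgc

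This stretch was 76.1% G and C, against a median of 52.1% over the same stretch of 32851 RefSeq promoters. It held no match to the consensus estrogen response element GGTCANNNTGACC, which 0.0578% of those promoters held, and none to 1 arm of that palindrome (GGTCA or TGACC), which 34.0% held. It held 1 GC box (GGGCGG or CCGCCC), as 31.0% of promoters did at least once, and 1 CCAAT box (CCAAT or ATTGG), as 32.9% did. Both strands were searched and no 2 matches overlapped. These are matches of letters only. The sequences under the ERα peaks are on mm9 and were not analysed here.

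Most ERα peaks of the locus lay inside the gene. Of the 24 estradiol peaks, 19 fell in the Scube1 interval, 2 upstream of its start and 3 past its far end. Of the 8 vehicle peaks, 6 fell in the interval, none upstream and 2 past the far end. Peaks past the far end lay 170 to 207 kb from the start of this 121 kb interval, on the side of Ttll12. That gene was not placed on mm9, so whether these peaks lie in or beyond it was not checked. The 19 estradiol peaks formed a single run of 67.1 kb from 83458800 to 83525863, with every gap under 12500 bp, and all 6 vehicle peaks of the gene lay inside that run. The run began 30.1 kb downstream of the start and ended 23.8 kb before the far end, and it spanned 55.4% of the gene interval. Gaps between neighbouring estradiol peaks in the run ranged from 0.107 to 12.3 kb with a median of 2.37 kb, against a median of 27.3 kb over the whole estradiol list. The 6 vehicle peaks in the run were 3.14 to 21.2 kb apart, with a median gap of 7.84 kb against 129 kb over the vehicle list.

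**Figure D1:**
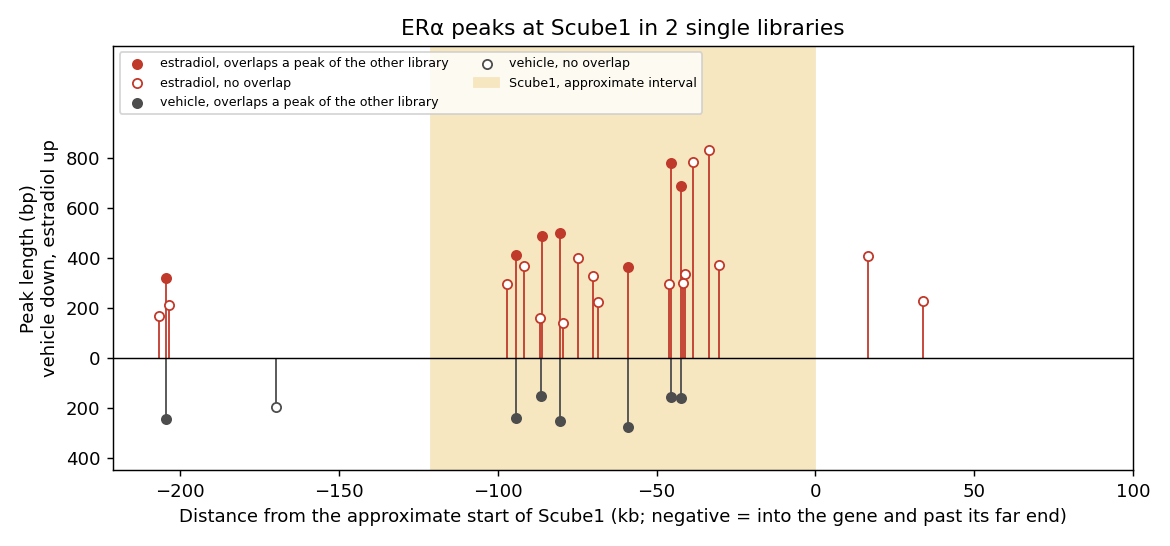
Each stem is 1 peak, placed by its distance in kb from the approximate start of Scube1 (x axis) with its length in bp (y axis, estradiol upward, vehicle downward), and filled points mark peaks that overlap a peak of the other library. The longest estradiol peaks, up to 833 bp, stand between 30 and 47 kb inside the gene, where the vehicle peaks are 155 and 159 bp.

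Outside the run the peaks of the locus were sparse. Upstream of the start, the estradiol library had a peak of 407 bp from 83572410 to 83572816 and one of 229 bp from 83589586 to 83589814, at 58.6 and 75.8 kb from the closest vehicle peak. Past the far end, 3 estradiol peaks of 167, 322 and 211 bp lay between 83349177 and 83352682, and the middle one met a vehicle peak. Between this group and the run, 106 kb had no estradiol peak, and between the run and the upstream pair 46.5 kb had none, a stretch that includes the start of the gene. Beyond the chosen window the next estradiol peaks lay 179 kb below the lowest member and 239 kb above the highest, each 315 bp long. The next vehicle peaks lay 270 kb below and 315 kb above the vehicle members, and were 183 and 235 bp long.

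An estradiol peak was found at 7 of the 8 vehicle peaks (87.5%, 95% Wilson interval 52.9 to 97.8), against 71.3% of the whole vehicle list, which lies within that interval. In the other direction 7 of the 24 estradiol peaks overlapped a vehicle peak (29.2%, 14.9 to 49.2), against 21.2% of the whole estradiol list. Under a stricter rule, an overlap of at least 50% of each peak, 4 of the 8 vehicle peaks (50.0%) qualified, against 56.4% of the vehicle list. By that rule 4 of the 24 estradiol peaks (16.7%) qualified, against 16.97% of the estradiol list. The intervals in this paragraph reflect counting error alone and assume independent peaks, which neighbours are not. The locus was also picked because vehicle peaks lay among its estradiol peaks, so these shares follow in part from the choice and test nothing. There were 3.00 estradiol peaks for each vehicle peak at the locus and 3.33 over the whole lists. Vehicle peaks made up 25.0% of its peaks (exact binomial interval 11.5 to 43.4) and 23.1% of both lists.

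At all 7 shared sites the vehicle peak lay wholly inside the estradiol peak, which was so at 63.4% of the 3584 sites of the whole lists that paired 1 peak of each library. The estradiol peak was therefore longer at each of the 7, as it was at 74.8% of sites genome-wide. Past the far end of the gene, the vehicle peak of 245 bp (83351521 to 83351765) lay in an estradiol peak of 322 bp (83351510 to 83351831). In the gene, from the far end toward the start, the first vehicle peak was 239 bp (83461576 to 83461814) in an estradiol peak of 414 bp (83461500 to 83461913). The second was 153 bp (83469651 to 83469803) in one of 487 bp (83469583 to 83470069). These first sites already differed in how much longer the estradiol peak was, with ratios of 1.31, 1.73 and 3.18.

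The third vehicle peak of the gene was 252 bp (83475503 to 83475754) in an estradiol peak of 501 bp (83475364 to 83475864), a ratio of 1.99. The fourth was 276 bp (83496958 to 83497233), the longest vehicle peak of the locus, in an estradiol peak of 366 bp (83496943 to 83497308), a ratio of 1.33. The last 2 sites, nearest to the start, had the highest ratios. There a vehicle peak of 155 bp (83510346 to 83510500) lay in an estradiol peak of 779 bp (83510218 to 83510996), a ratio of 5.03. Next to it a vehicle peak of 159 bp (83513638 to 83513796) lay in an estradiol peak of 688 bp (83513324 to 83514011), a ratio of 4.33.

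**Figure D2:**
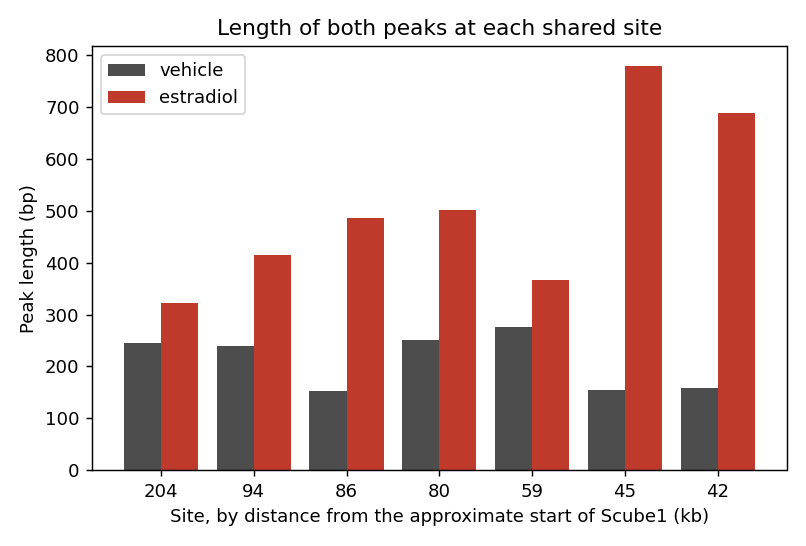
Bars give the length in bp of the vehicle and the estradiol peak at each of the 7 shared sites, ordered by distance in kb from the approximate start of Scube1. The 3 shortest vehicle peaks, 153 to 159 bp, sit at sites where the estradiol peak is 487 to 779 bp.

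The length ratio was at least 2 at 3 of the 7 sites, against 17.4% of all such sites, and at least 4 at 2 of them, against 1.48%. The median ratio was 1.99 at the locus and 1.29 over the whole lists. The 3 sites with the highest ratios were the 3 with the shortest vehicle peaks, and a short vehicle peak leaves more room for a high ratio by construction. The extra length had a median of 76 bp on the low side and 110 bp on the high side, and how evenly it was shared differed between sites. It was 76 and 99 bp at the 414 bp peak and 139 and 110 bp at the 501 bp peak. At the 779 bp peak the estradiol interval reached 128 bp past the vehicle peak on the low side and 496 bp on the high side, at the 688 bp peak 314 and 215 bp, and at the 487 bp peak 68 and 266 bp. The centres of both peaks lay a median of 30 bp apart at the locus, against 17 bp genome-wide. They were within 49.5 bp of each other at 5 of the 7 sites, and 99 and 184 bp apart at the 487 and 779 bp peaks.

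The exception among the vehicle peaks was one of 197 bp from 83386158 to 83386354, past the far end of Scube1. It had no estradiol overlap, and the nearest estradiol peak lay 33.5 kb away. Its length was within the range of the vehicle peaks that did overlap, 153 to 276 bp.

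The 17 estradiol peaks without a vehicle peak included the longest peaks of the locus. The longest was 833 bp from 83521931 to 83522763, 8.13 kb from the nearest vehicle peak, and 99.3% of the estradiol list was shorter. The second was 785 bp from 83516948 to 83517732, 3.15 kb from a vehicle peak, with 99.1% of the list shorter. Both lay in the part of the run nearest to the start. The other long ones were the upstream peak of 407 bp described above, one of 400 bp from 83481078 to 83481477 and one of 374 bp from 83525490 to 83525863, which closes the run. The shortest were 140 bp from 83476366 to 83476505, 161 bp from 83469121 to 83469281 and the 167 bp peak past the far end. The remaining 9 ranged from 211 to 369 bp and included the peak of 296 bp from 83458800 to 83459095 that opens the run.

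Some of the peaks seen only after estradiol stood beside a shared site. Of the 17, 6 lay within 1 kb of an estradiol peak that overlapped a vehicle peak, at distances of 107 to 669 bp, against 4.24% of such peaks over the whole list. The locus was picked for its dense peaks, so this share follows in part from the choice. The closest was 300 bp long, from 83514119 to 83514418, and began 107 bp after the 688 bp peak. Chromatin was sheared to an average of 300 to 500 bp, per the labels' protocols, which is longer than several of these gaps. Whether such neighbours are separate sites was not tested.

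Estradiol peaks at the locus were long. Their lengths ran from 140 to 833 bp with a median of 351.5 bp, against 242 bp over the estradiol list (quartiles 183 and 317 bp), and 18 of the 24 were longer than that list's median. Of the 24, 6 were in the longest decile of the list (420 bp or more), against 10.0% of the list. The vehicle peaks ran from 153 to 276 bp with a median of 218 bp, against 207 bp over the vehicle list (quartiles 160 and 270 bp), and none of the 8 was in that list's longest decile. Both kinds of estradiol peak were longer at the locus than in the list as a whole. The 7 at shared sites had a median length of 487 bp against 306 bp for all estradiol peaks that met a vehicle peak. The other 17 had a median length of 300 bp against 227 bp. In all, the peaks covered 9.42 kb after estradiol and 1.68 kb after vehicle. The whole estradiol list also held 3.33 times as many peaks as the vehicle list, with a longer median (242 against 207 bp). The length covered over the whole lists was not computed, so this contrast has no background beside it.

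With gaps of 5 kb or more as breaks, the run fell into 3 groups and a lone peak. The group farthest from the start spanned 11.3 kb from 83458800 to 83470069, with 5 estradiol peaks of 161 to 487 bp and 2 vehicle peaks. The middle group spanned 12.3 kb from 83475364 to 83487697, with 5 estradiol peaks of 140 to 501 bp and 1 vehicle peak. The lone peak was the shared site of 366 bp, at 9.25 and 12.3 kb from its neighbours. The group nearest to the start spanned 16.2 kb from 83509622 to 83525863, with 8 estradiol peaks of 296 to 833 bp and 2 vehicle peaks.

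The group nearest to the start held most of the length that estradiol peaks covered in the run. Its 8 peaks covered 4392 bp, or 54.4% of the 8080 bp that the run's peaks covered, and 4 of them were in the longest decile of the list. The far group covered 1727 bp and the middle group 1595 bp, each with 1 peak in that decile. Vehicle peaks covered 314 bp in the near group, 392 bp in the far group, 252 bp in the middle group and 276 bp at the lone site, so the near group did not stand out in the vehicle library.

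The number in each peak name, whose meaning is not stated, divided the estradiol peaks of the locus by length. The first 5480 numbers of the estradiol list, 31.8% of it, pass through each chromosome once in rising position. Of the 24 peaks, 18 (75%) had numbers in that block, 5203 to 5220, which are consecutive because the block is in order of position. These 18 were 296 to 833 bp long and included all 7 shared sites. The other 6, numbered 7364 to 14674, were 140 to 229 bp long. Over the whole list the median length was 354 bp inside the block and 203 bp outside it. Estradiol peaks that met a vehicle peak were also longer list-wide, with a median of 306 bp against 227 bp for the others. The share of all such peaks that fell in the block was not computed, so the 7 shared sites have no background here. In the vehicle list such a block covers numbers 1 to 384, only 7.41% of it, and none of the 8 vehicle peaks was in it. With so small a block, this is no contrast with the estradiol peaks.

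Windows of the same length, 321 kb, laid end to end over each chromosome, give the setting of these counts. Of 7932 windows, 0.340% held at least 24 estradiol peaks and 0.378% held at least 8 vehicle peaks, and 4 windows (0.0504%) reached both numbers. The median window held 1 estradiol peak and 0 vehicle peaks. The locus was picked for its peak number, so its place among the windows is a consequence of that choice.

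**Figure D3:**
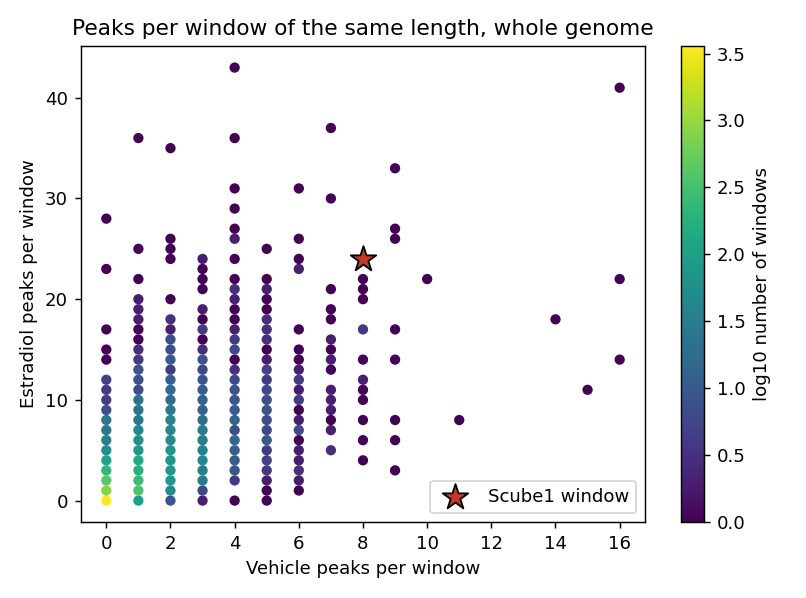
Points give the number of vehicle peaks (x axis) and estradiol peaks (y axis) in windows of 321 kb over the genome, coloured by the log10 number of windows with that pair of counts. The star marks the Scube1 window with 8 vehicle and 24 estradiol peaks, which lies to the upper right of nearly all windows.

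The Scube1 run was also set beside the other long runs. The estradiol list formed 363 runs of at least 5 peaks, of which 47 (12.9%) had at least 10, and the Scube1 run had the fourth most peaks. The 47 held a median of 2 vehicle peaks (0 to 6), and the 6 at Scube1 were the highest number, which 5 of the 47 reached. Of its 19 estradiol peaks, 31.6% overlapped a vehicle peak, against a median of 18.2% (0 to 50.0) over the 47, and 8 runs including it reached that share. The median peak length was 369 bp at Scube1 and had a median of 297 bp (230.5 to 443) over the 47, and 6 runs including Scube1 reached 369 bp. The peaks of the Scube1 run covered 12.0% of it, against a median of 10.6%, and 17 runs including it reached that value.

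Among the runs with more peaks, the one of 21 on chromosome 5 from 35959535 to 36030082 had values near those of Scube1. It held 6 vehicle peaks, its estradiol peaks had a median of 382 bp, and 28.6% of them overlapped a vehicle peak. The run of 25 peaks on chromosome 14 from 26276673 to 26352923 held 1 vehicle peak with a median length of 263 bp for its estradiol peaks. The run of 24 peaks on chromosome 5 from 114020123 to 114086273 held 2, with a median of 297 bp. Runs are not replicates of a condition and none of these differences was tested.

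**Figure D4:**
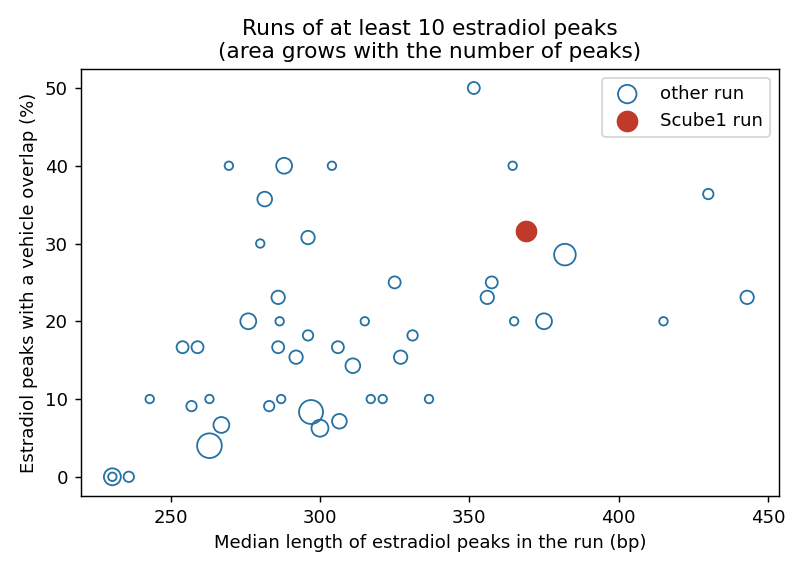
Each circle is 1 of the 47 runs of at least 10 estradiol peaks, with the median length of its estradiol peaks in bp (x axis) and the percent of them that overlap a vehicle peak (y axis), and its area grows with the number of peaks. The Scube1 run, filled, stands at 369 bp and 31.6%, to the right of and above the medians of 297 bp and 18.2%.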

How the data were processed

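The 2 ERα peak lists were used, and the RNA polymerase II and input libraries of the 5 in the series were not analysed here. Each list was deposited by the authors per sample as 4 columns (chromosome, start, end and peak name), on mm9 per the file headers. The submitters' processing notes name mm9 and Partek. For the aligner, the peak caller and any use of the input, names and settings were not given in the sources used here. Other values such as score or coverage were not in these lists. Deposited starts were read as counting from 0 and are printed counted from 1, and length is end minus start.

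Peaks overlapped when they shared at least 1 bp. A shared site was 1 vehicle peak meeting 1 estradiol peak. A run was at least 5 peaks with gaps under 12500 bp. Genome windows counted peak centres. Intervals are 95% Wilson or exact binomial. Python 3.11.15, numpy 2.4.6, pandas 2.3.3 and scipy 1.17.1 were used, and the counting was tested on simulated data. With 1 library per condition no test between conditions was made. RefSeq gene names and the promoter are on GRCm38.p6, so peaks were not assigned to exons or introns, the planned counts for the SCUBE family and for hedgehog and BMP genes were not made, and motifs in peaks were not searched. The rule for named items gave in full all vehicle peaks, all estradiol peaks that overlap one, the 5 longest and 3 shortest other estradiol peaks, and the edges of the run. The locus, its members and these rules were chosen with earlier results of these data known.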

Additional observations from a re-analysis of the deposited data

How the results depend on the processing

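Of 35 alternative values, 28 stayed near the main one (within 1.5 times for counts, medians and ratios, within the interval for shares) and 7 moved. These bounds are wide at so few peaks. Estradiol overlap shares of 16.7% and 43.8% both counted as near the main 29.2%, so the tally is a weak measure of stability. Keeping peaks at least as long as the median of their list left 4 vehicle peaks at Scube1. The lower 50% of each list by deposited number left 5. The vehicle peaks left all overlapped an estradiol peak (100%), but these were only 4 of 4 and 5 of 5. The share over the whole vehicle list under these settings was not computed, so the 100% has no background beside it. Requiring an overlap of 50% of both peaks lowered the share of vehicle peaks with an estradiol overlap to 50.0% and the number of shared sites from 7 to 4, since the vehicle peaks nested in much longer estradiol peaks no longer qualify. With gaps below 5 kb the largest group held 8 estradiol peaks. Reducing the estradiol list to its longest peaks, as many as the vehicle list holds, left 16 estradiol peaks at the locus, and the 7 vehicle overlaps were still counted. No paired analysis was possible because each condition has 1 library, and for the same reason none could be left out. Read depth is unknown, which limits what peak number and length can show between the libraries.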
